A study of Mus musculus with 8 samples.

Results

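The cytochrome P450 genes of the kidney were compared between diabetic mice given rFGF4 and diabetic model mice that were not, leaving out the CYP4A fatty acid hydroxylases, the vitamin D enzymes (Cyp24a1, Cyp27b1 and Cyp2r1) and the sterol demethylase Cyp51. The members were all genes of the table whose symbol had the form Cyp, number, letter, number, without the pseudogenes marked -ps. The rule gave 89 of the 55401 genes listed, and it reads only the symbol of a gene. Of the 89, 1 is Cyp4x1os, an antisense RNA that encodes no enzyme.

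Poly(A) RNA of kidney tissue was sequenced from 4 mice labelled as treated with rFGF4, a recombinant form of fibroblast growth factor 4, and from 4 mice labelled as db/db model, a strain that lacks a working leptin receptor and becomes obese and diabetic. The labels give no genotype for the treated mice, and the study's text describes the sequenced mice as diabetic after streptozotocin and given rFGF4 or PBS, so the diabetes model of both groups is not settled by the sources. Mice are named here by the numbers in their labels, 1, 2, 3 and 5 for rFGF4 and 2, 3, 4 and 5 for the model, and values are always given in that order. Levels are FPKM, fragments scaled to transcript length and to all fragments of the library, a scale on which genes of different length can be compared within a library. The table holds no read counts, so the depth of each library is unknown, and relative to model mouse 2 it was estimated from the smallest values at 0.907 to 1.12.

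P450 enzymes are heme proteins of the endoplasmic reticulum or mitochondria that use electrons from a reductase to insert oxygen into fatty acids, sterols, steroids, retinoids, drugs and pollutants. The liver holds the broadest set. In the kidney they lie mostly in the proximal tubule, where CYP2C and CYP2J enzymes turn arachidonic acid into epoxides that act on vessel tone and sodium transport, and CYP4 enzymes hydroxylate the ends of fatty acids.

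Neighbouring P450 genes arose by tandem duplication and some are nearly the same in sequence, which limits how far reads can be assigned to 1 gene. The promoter windows of Cyp2a4 and Cyp2a5 are shown because these genes were among the 6 most abundant members and share the most sequence of them. Each window runs from 250 bases before to 50 after the start in RefSeq's GRCm38.p6 table, 5′ to 3′, on the + strand, with capitals where the aligned bases differ. The first lies at chr7:26306942-26307241 and the second at chr7:26835089-26835388.

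Cyp2a4: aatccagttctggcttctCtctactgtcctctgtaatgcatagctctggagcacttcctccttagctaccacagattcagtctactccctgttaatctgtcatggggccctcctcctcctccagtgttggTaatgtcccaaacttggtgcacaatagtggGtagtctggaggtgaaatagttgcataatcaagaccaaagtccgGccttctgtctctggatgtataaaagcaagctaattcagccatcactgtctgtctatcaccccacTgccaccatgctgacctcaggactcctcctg

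Cyp2a5: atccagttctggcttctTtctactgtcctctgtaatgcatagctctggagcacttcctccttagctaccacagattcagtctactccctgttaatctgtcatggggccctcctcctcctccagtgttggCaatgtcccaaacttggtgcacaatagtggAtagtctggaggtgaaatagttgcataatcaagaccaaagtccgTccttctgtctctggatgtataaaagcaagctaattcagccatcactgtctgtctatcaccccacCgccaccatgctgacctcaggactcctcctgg

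The windows had 294 identical bases, 5 mismatches and 2 gap bases, an identity of 98.3% over the aligned bases. The longest GENCODE M21 transcripts of the pair were also 98.3% identical over aligned bases, and 11.2% of the 100-base stretches of the Cyp2a4 transcript occurred in Cyp2a5. The ratio of Cyp2a4 to Cyp2a5 ranged from 0.997 to 1.52 over the 8 libraries, and how reads were divided between them was not tested.

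Abundant P450 genes of other subfamilies are shown for contrast. Cyp2e1 on the + strand at chr7:140763569-140763868 and Cyp2j5 on the - strand at chr4:96664070-96664369 differ in which of the searched motifs they hold, and capitals mark those motifs.

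Cyp2e1: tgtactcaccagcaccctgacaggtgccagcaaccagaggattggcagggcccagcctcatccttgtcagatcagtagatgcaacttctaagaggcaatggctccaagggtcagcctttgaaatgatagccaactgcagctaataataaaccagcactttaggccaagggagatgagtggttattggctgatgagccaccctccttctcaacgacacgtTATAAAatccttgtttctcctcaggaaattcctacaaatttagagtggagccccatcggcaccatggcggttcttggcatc

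Cyp2j5: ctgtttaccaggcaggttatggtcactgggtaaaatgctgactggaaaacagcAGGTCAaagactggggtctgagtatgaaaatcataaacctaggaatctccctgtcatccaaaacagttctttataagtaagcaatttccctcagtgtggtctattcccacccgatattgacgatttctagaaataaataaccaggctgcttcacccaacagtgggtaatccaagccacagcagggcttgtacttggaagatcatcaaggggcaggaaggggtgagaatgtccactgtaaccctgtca

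The capitals in Cyp2e1 are a TATA box, searched as TATAAA on the gene's own strand, and those in Cyp2j5 an AGGTCA half-site, the unit bound by nuclear receptors such as PPARs with RXR. The other motifs searched, on both strands, were GTTAAT, a half-site of HNF1, and GCGTG, the core bound by the aryl hydrocarbon receptor, and matches were counted even where they overlapped. RefSeq windows were found for 72 of the 89 members. TATAAA occurred in 24 of the 72 and in 8.88% of all 27025 promoters. AGGTCA occurred in 19 of the 72 and in 16.0% of all promoters, GCGTG in 15 of the 72 and 32.5%, and GTTAAT in 7 of the 72 and 7.20%. A match here is a run of letters and not a measured binding site.

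A small set of genes made most of the summed FPKM of the members. Of the 89 members, 75 were above 0 in some library and 31 passed the filter of at least 0.5 FPKM in 4 or more libraries, on which the tests ran. The 6 most abundant, Cyp4b1, Cyp2j5, Cyp2e1, Cyp2a4, Cyp2d26 and Cyp2a5, made 74.7 to 86.1% of the summed FPKM of all members, and the 10 most abundant made 82.5 to 94.4%. Beyond those 6, the leading 10 held Cyp2d9, Cyp2j11, Cyp2c23 and Cyp27a1. The members together took 0.208 to 0.504% of all FPKM in a library.

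**Figure D1:**
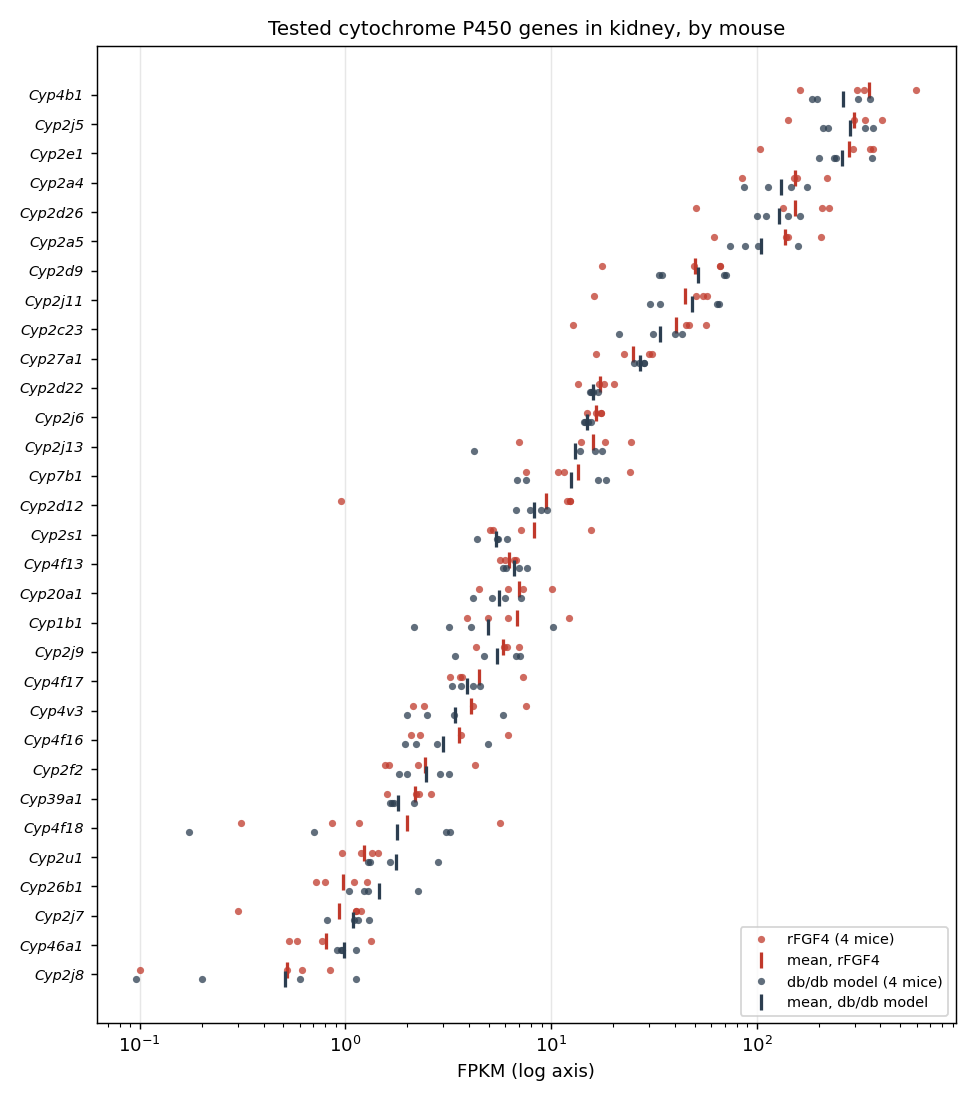
Level of each of the 31 tested P450 genes in FPKM on a log axis, with 1 point for each mouse, red for rFGF4 and dark blue for the db/db model, and a bar at each group mean. The groups overlap for every gene, and rFGF4 mouse 1 is the lowest point of each of the 10 most abundant genes.

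A single library stood apart from the rest. All 10 of the most abundant members were lowest in rFGF4 mouse 1, and 6 of the 10 were highest in rFGF4 mouse 3. Of the other 21 tested members, 10 were highest in rFGF4 mouse 1, among them Cyp1b1, Cyp2s1, Cyp4f18, Cyp4v3 and Cyp20a1. Of all 15150 genes tested, 48.1% were highest in that library and 10.9% lowest. Its median ratio to the typical library was 1.30, the highest of the 8, and mitochondrial genes took 18.96% of its FPKM, the lowest share, and their part in these counts was not tested. The summed FPKM of all members was 811 in rFGF4 mouse 1 and 2330 in rFGF4 mouse 3, the lowest and highest of the 8.

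Markers of cell types also set single libraries apart, rFGF4 mouse 1 for some lists and model mouse 5 for others. All 10 proximal tubule markers, among them Slc34a1, Lrp2 and Slc5a2, were present in every library and all 10 were lowest in rFGF4 mouse 1, where they summed to 1318 FPKM, against 3526 to 8893 elsewhere. The 4 macrophage markers summed to 246 FPKM there and to 277 in model mouse 5, against 16.3 to 105 in the other libraries. The 7 lymphoid markers were all highest in model mouse 5. The 3 red blood cell markers summed to 71.0 FPKM in rFGF4 mouse 1, the lowest, and to at most 2454. In RNA of bulk tissue, fewer cells of a type and less RNA per cell cannot be told apart, and the part of these shifts in the P450 values was not tested.

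**Figure D2:**
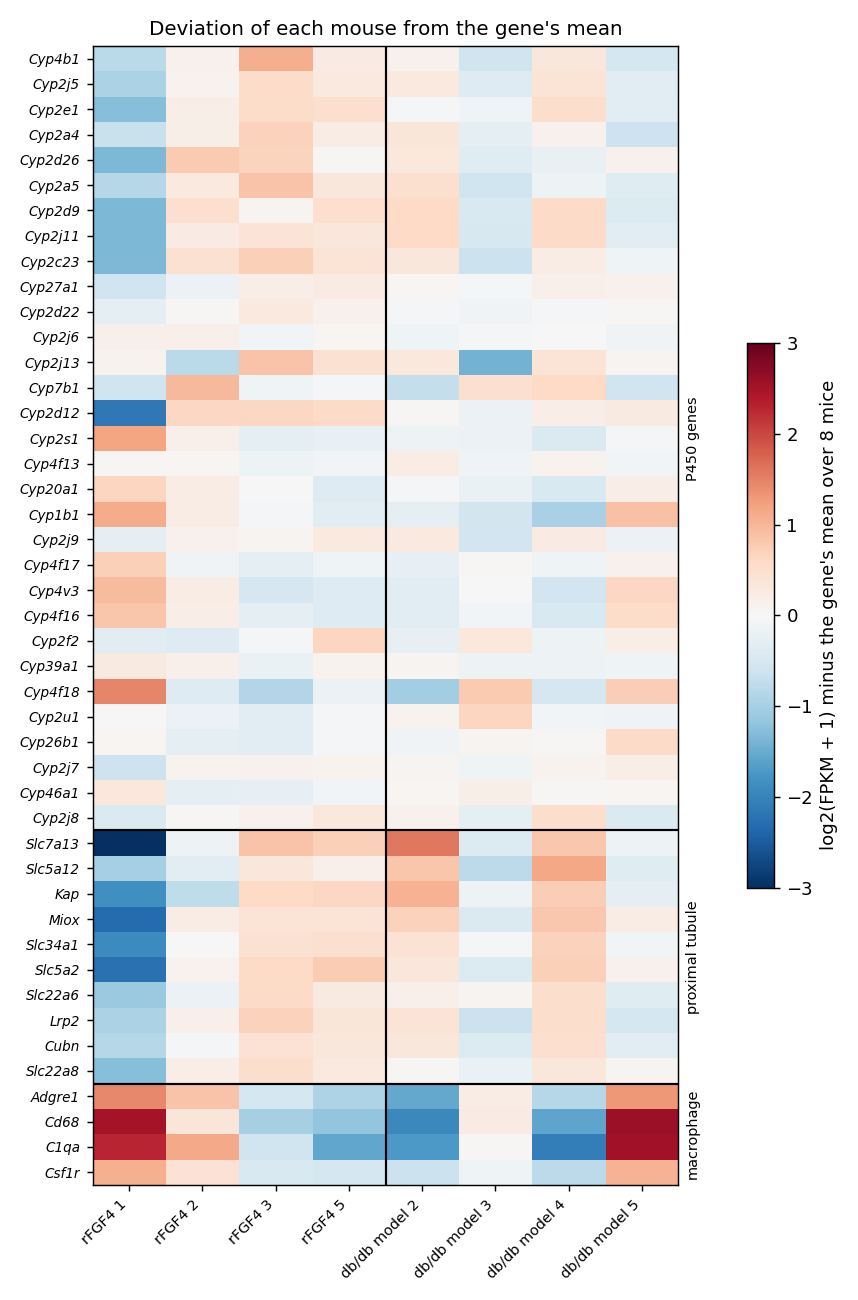
Deviation of log2(FPKM + 1) in each mouse from the gene's mean over the 8 mice, for the 31 tested P450 genes in order of level, 10 proximal tubule markers and 4 macrophage markers, with colours capped at 3 in either direction. The column of rFGF4 mouse 1 is blue for the abundant P450 genes and for all proximal tubule markers and red for the macrophage markers and a group of less abundant P450 genes.

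The comparison asks which P450 genes differed in the kidney after rFGF4. The study called genes by a fold change of 1.5 or more with p under 0.05, read here as p before adjustment. In limma's fit none of the 31 tested members met both limits, where 1.52% of the 15150 genes tested across the table did. No member had an unadjusted p under 0.05, against 4.62% of all genes, but this count moved with the libraries used. Without rFGF4 mouse 1 it was 4 of the 31 (Cyp2d12, Cyp46a1, Cyp2c23 and Cyp2a5), against 4.23% of all genes, and without model mouse 5 it was 1, against 6.51%. In no member were the groups free of overlap, against 3.33% of all genes. With 4 against 4 mice an exact permutation p under 0.05 needs groups free of overlap, so that test could call none of the 31, and its smallest p was 0.0857 for Cyp2j6. Adjusted p-values of members started at 0.918, and no gene of the table had an adjusted p under 0.05. Log2 fold changes of the members, on the log2(FPKM + 1) scale and rFGF4 minus model, ran from -0.30 to 0.47 with a median of 0.09, beside a median of 0.09 over all genes tested, and 19 were above 0 and 12 below. With libraries scaled to a common median ratio, 12 of the 31 were above 0.

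These tests left room for sizeable differences. The 95% interval of the log2 fold change lay inside 1.5-fold in both directions for 6 of the 31 members, 19.4%, and for 47.0% of all genes tested. The 6 were Cyp2d22, Cyp2j6, Cyp2j7, Cyp4f13, Cyp39a1 and Cyp46a1, none of them among the 10 most abundant. These intervals are on the log2(FPKM + 1) scale, which understates differences of low genes. Cyp2j7, Cyp39a1 and Cyp46a1 had means of 1.01, 1.99 and 0.897 FPKM. With a pseudocount of 0.1 their log2 fold changes went from -0.14, 0.17 and -0.16 to -0.33, 0.24 and -0.35, so their true differences are not bounded by 1.5-fold here. Without rFGF4 mouse 1 the threshold was passed by 1 member, Cyp2a5, and by 202 of all genes (1.33%), and without model mouse 5 by 1 member, Cyp1b1, and by 432 of all genes (2.85%). The median log2 fold change of the members was 0.18 without rFGF4 mouse 1, with 23 of 31 above 0, beside a median of 0.010 over all genes in the same fit. The count of all genes past the threshold was 231 with all libraries and 575 without rFGF4 mouse 5.

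**Figure D3:**
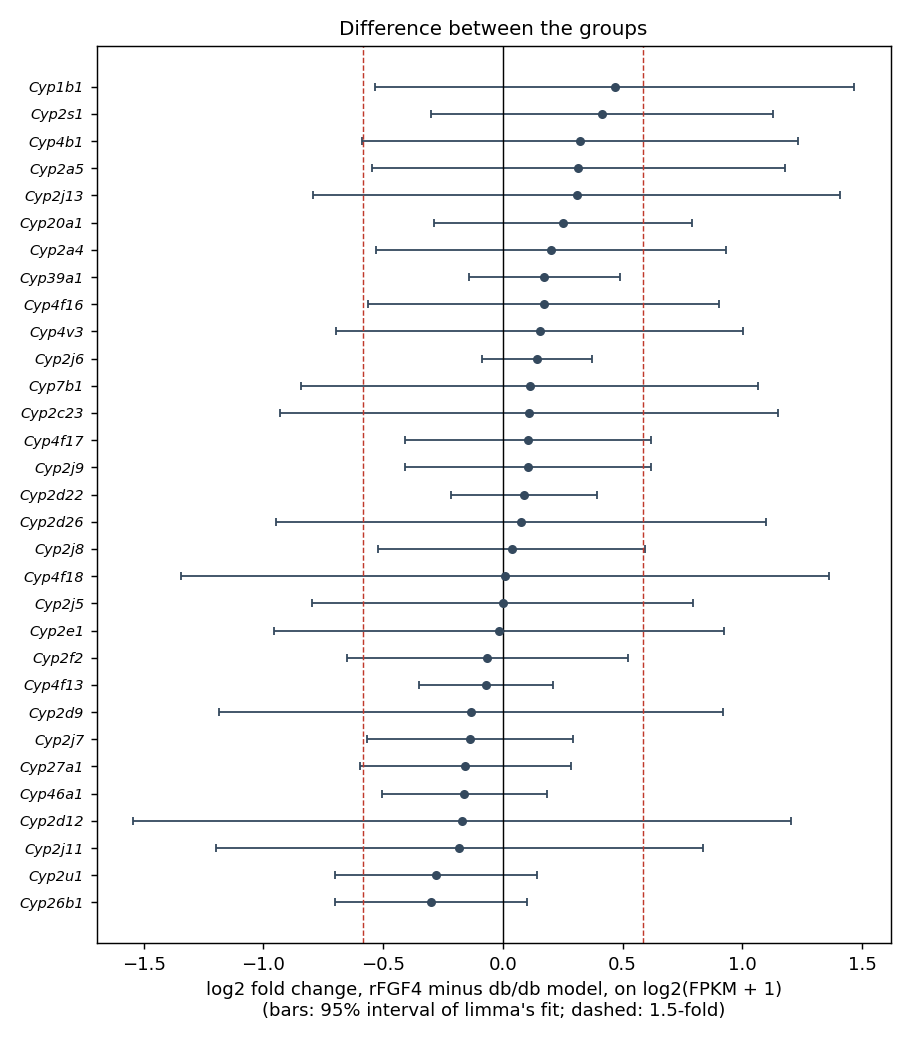
Log2 fold change of each tested P450 gene, rFGF4 minus db/db model, on log2(FPKM + 1), with its 95% interval from limma's fit and dashed lines at 1.5-fold. Every interval includes 0, and 6 of the 31 lie wholly between the dashed lines.

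The CYP2J cluster spans 637 kb at chr4:96027534-96664154 (GRCm38), and 7 of its 8 genes passed the filter, Cyp2j12 being at 0 in all libraries. Cyp2j5, an arachidonic acid epoxygenase abundant in mouse kidney, measured 143, 298, 407 and 337 FPKM in the rFGF4 mice and 337, 211, 369 and 222 FPKM in the model mice. It was lowest in rFGF4 mouse 1 and highest in rFGF4 mouse 3, so the model values lay inside the range of the treated ones. Its group means were 296 ± 112 FPKM with rFGF4 and 285 ± 79.8 in the model (SD, n = 4 each), with a log2 fold change of -3.85e-05 (95% interval -0.80 to 0.80).

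Cyp2j11 gave 16.2, 50.9, 57.1 and 54.8 FPKM in the rFGF4 mice and 65.6, 30.4, 64.4 and 33.9 FPKM in the model mice. Of the treated mice, mouse 1 stood below all others, and the model values formed a lower pair, mice 3 and 5, and a higher pair, mice 2 and 4. The log2 fold change was -0.18 (95% interval -1.2 to 0.84).

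Cyp2j6 was the steadiest of the tested members, with the highest value 1.22 times the lowest. It measured 17.6, 17.5, 14.9 and 16.5 FPKM in the rFGF4 mice and 14.4, 15.1, 15.7 and 14.6 FPKM in the model mice, and the groups overlapped only because rFGF4 mouse 3 lay below model mice 3 and 4. Cyp2j6 had a log2 fold change of 0.14 (95% interval -0.085 to 0.37), with p = 0.188 in limma and an exact permutation p of 0.0857. Its ratio to Cyp2j5, a neighbour in the cluster, was far from constant, as Cyp2j5 was 8.11 to 27.3 times Cyp2j6.

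Cyp2j13 ranged over 5.77 times between libraries, from 4.25 FPKM in model mouse 3 to 24.5 in rFGF4 mouse 3, with a log2 fold change of 0.31 (95% interval -0.79 to 1.41). The remaining members of the cluster were Cyp2j9, with group means of 5.84 ± 1.12 FPKM with rFGF4 and 5.48 ± 1.73 in the model (SD, n = 4 each), and Cyp2j7 and Cyp2j8, with means of about 1 FPKM or less. Cyp2j7 measured 0.30, 1.13, 1.19 and 1.12 FPKM in the rFGF4 mice and 1.1, 0.819, 1.15 and 1.3 FPKM in the model mice, again with rFGF4 mouse 1 lowest. Cyp2j8 measured 0.10, 0.522, 0.616 and 0.845 FPKM in the rFGF4 mice and 0.603, 0.201, 1.13 and 0.0958 FPKM in the model mice, which puts it at the edge of the filter.

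Cyp2c23, a renal arachidonic acid epoxygenase, was the only CYP2C gene to pass the filter. It measured 12.7, 47.1, 56.8 and 45.3 FPKM in the rFGF4 mice and 43.2, 21.3, 40.1 and 31.3 FPKM in the model mice. The other treated mice lay between 45.3 and 56.8 FPKM, above all model mice, while mouse 1 lay below all of them. Group means were 40.5 ± 19.2 FPKM with rFGF4 and 34 ± 9.83 in the model (SD, n = 4 each), and the log2 fold change was 0.11 (95% interval -0.93 to 1.15). Leaving out rFGF4 mouse 1 moved it to 0.58, which remained short of the threshold.

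The CYP2C cluster proper, 14 genes over 1180 kb at chr19:39007019-40187333, lies apart from Cyp2c23. In it 12 genes were above 0 in some library and 0 passed the filter. The highest value of any untested gene of the CYP2A, CYP2B and CYP2C families was 0.428 FPKM, in Cyp2b9. The CYP2B genes, which phenobarbital induces through the receptor CAR in liver, were thus all near 0.

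Of the CYP2A genes, Cyp2a4, a testosterone hydroxylase, measured 84.8, 153, 219 and 158 FPKM in the rFGF4 mice and 175, 113, 147 and 87.3 FPKM in the model mice. Cyp2a5, the coumarin hydroxylase, measured 62.2, 138, 206 and 142 FPKM in the rFGF4 mice and 159, 74.6, 101 and 87.5 FPKM in the model mice. Both were highest in rFGF4 mouse 3, both were lowest in rFGF4 mouse 1, and in both the groups overlapped. The log2 fold change was 0.20 (95% interval -0.53 to 0.93) for Cyp2a4 and 0.32 (95% interval -0.55 to 1.18) for Cyp2a5. Without rFGF4 mouse 1 the value of Cyp2a5 was 0.65, which passed the threshold, with adjusted p = 0.9996 in limma's fit, and without rFGF4 mouse 3 it was 0.081. Without rFGF4 mouse 3 Cyp2a4 was at 0.0052. Cyp2a4 shares exon sequence with the annotated gene Gm42375, and the pair shares stretches of identical sequence as shown above.

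The CYP2D enzymes, relatives of a major human drug-metabolising P450, were represented by 4 of 8 genes in a cluster of 424 kb at chr15:82370527-82794294. Cyp2d26 measured 50.8, 224, 207 and 134 FPKM in the rFGF4 mice and 162, 100.2, 111 and 143 FPKM in the model mice. Treated mice 2 and 3 were above all model mice and mouse 1 was below them, which gave means of 154 ± 79 FPKM with rFGF4 and 129 ± 28.7 in the model (SD, n = 4 each) and a log2 fold change of 0.076 (95% interval -0.95 to 1.1). Cyp2d9, a testosterone hydroxylase of male liver, measured 17.6, 66.7, 49.5 and 66.3 FPKM in the rFGF4 mice and 70.8, 33.4, 69.4 and 34.6 FPKM in the model mice. Its model values again split into a higher pair, mice 2 and 4, and a lower pair, mice 3 and 5, which the treated values overlapped, and its log2 fold change was -0.13 (95% interval -1.19 to 0.92).

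In Cyp2d12 a single mouse stood far apart. The gene measured 0.956, 12.4, 12.3 and 12 FPKM in the rFGF4 mice and 7.94, 6.78, 8.95 and 9.57 FPKM in the model mice. In 3 of the 4 treated mice it was above every model mouse, within 12.0 to 12.4 FPKM, and in mouse 1 it was 0.956 FPKM. The log2 fold change was -0.17 (95% interval -1.55 to 1.2), and without rFGF4 mouse 1 it was 0.52, under the 1.5-fold limit, with adjusted p = 0.9996 in limma's fit and an unadjusted p under 0.05. Cyp2d12 and Cyp2d9 overlap exons of other annotated genes, Gm27924 for the former and Gm27622 and Gm46501 for the latter, so their reads are partly uncertain.

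Cyp2d22 varied little, at 13.5, 17.1, 20.4 and 18.1 FPKM in the rFGF4 mice and 15.7, 15.4, 15.9 and 17 FPKM in the model mice. The other treated mice lay above all model mice and mouse 1 below, and the interval of its difference, 0.089 (95% interval -0.22 to 0.40), stayed inside 1.5-fold. Setting mouse 1 apart, here and for Cyp2c23 and Cyp2d12, was done after seeing the values. The share of all genes with the same arrangement was not counted. The 4 untested CYP2D genes did not exceed 0.741 FPKM in any library.

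Cyp2e1, which oxidises ethanol, acetone and acetaminophen, measured 104, 293, 369 and 356 FPKM in the rFGF4 mice and 243, 237, 363 and 200.3 FPKM in the model mice. The lowest value was that of rFGF4 mouse 1 and the other treated values mingled with those of the model mice. Means were 280.5 ± 122 FPKM with rFGF4 and 261 ± 70.6 in the model (SD, n = 4 each), and the log2 fold change was -0.015 (95% interval -0.96 to 0.93).

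Among the other CYP2 genes, Cyp2s1, an epithelial enzyme inducible through the aryl hydrocarbon receptor, measured 15.6, 7.16, 5.03 and 5.23 FPKM in the rFGF4 mice and 5.54, 5.44, 4.39 and 6.12 FPKM in the model mice. In this case rFGF4 mouse 1 was highest, at 15.6 FPKM against at most 7.16 in any other mouse, and the remaining values of the groups overlapped. Its log2 fold change was 0.41 (95% interval -0.30 to 1.13), and 0.0885 without rFGF4 mouse 1. Cyp2u1, a hydroxylase of long-chain fatty acids, measured 1.44, 1.19, 0.961 and 1.35 FPKM in the rFGF4 mice and 1.65, 2.83, 1.32 and 1.29 FPKM in the model mice, with a log2 fold change of -0.28 (95% interval -0.70 to 0.14). Cyp2f2, known for activating naphthalene in lung club cells, had means of 2.43 ± 1.27 FPKM with rFGF4 and 2.48 ± 0.663 in the model (SD, n = 4 each). Cyp2s1 and Cyp2u1 overlap exons of Gm26707 and 4930534D22Rik on the annotation. The 4 untested genes of this role did not exceed 0.323 FPKM, and Cyp2g1 and Cyp2w1 were at 0 in all libraries.

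Cyp4b1, an enzyme that hydroxylates fatty acids and activates furan toxins, was the most abundant member. It measured 162, 307, 599 and 333 FPKM in the rFGF4 mice and 309.7, 187, 356 and 197 FPKM in the model mice. The highest library was rFGF4 mouse 3 and the lowest rFGF4 mouse 1, so the treated values spanned those of the model group. Means were 350.2 ± 182 FPKM with rFGF4 and 262 ± 83.8 in the model (SD, n = 4 each), and Cyp4b1 had a log2 fold change of 0.32 (95% interval -0.59 to 1.23). Without rFGF4 mouse 3 it was 0.015. Part of its transcript, 4.46% of the 100-base stretches, also occurs in other transcripts, including the pseudogene Cyp4b1-ps1.

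Enzymes of the CYP4F genes inactivate leukotrienes and related eicosanoids. A cluster of 8 of these genes spans 495 kb at chr17:32452723-32947402, and 3 of the 8 passed the filter, as did Cyp4f18, which lies on another chromosome. Cyp4f13 measured 6.63, 6.75, 5.66 and 5.99 FPKM in the rFGF4 mice and 7.66, 5.86, 6.97 and 6.06 FPKM in the model mice with a log2 fold change of -0.070 (95% interval -0.35 to 0.21). Cyp4f17 and Cyp4f16 were both highest in rFGF4 mouse 1, at 7.33 and 6.19 FPKM, with other libraries at 3.22 to 4.52 FPKM for Cyp4f17 and 1.95 to 4.93 for Cyp4f16. Cyp4f16 shares 9.71% of its 100-base stretches with Cyp4f37. The 6 untested CYP4 genes, 5 of them CYP4F genes and the other Cyp4x1, did not exceed 1.06 FPKM in any library.

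Cyp4f18, the leukotriene hydroxylase of neutrophils and other leukocytes, had the widest range of the tested members. It measured 5.65, 0.864, 0.311 and 1.16 FPKM in the rFGF4 mice and 0.173, 3.21, 0.702 and 3.08 FPKM in the model mice, highest in rFGF4 mouse 1 and next in model mice 3 and 5. Cyp4v3, a fatty acid hydroxylase, measured 7.54, 4.19, 2.14 and 2.41 FPKM in the rFGF4 mice and 2.49, 3.36, 1.99 and 5.82 FPKM in the model mice, highest in rFGF4 mouse 1 and model mouse 5. The intervals of both differences reached well past 1.5-fold on each side, 0.0090 (95% interval -1.34 to 1.36) for Cyp4f18 and 0.15 (95% interval -0.70 to 1.0) for Cyp4v3. Each overlaps an exon of another annotated gene, Zfp961 and Gm45753 in turn.

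Of the sterol enzymes, Cyp27a1, the mitochondrial hydroxylase of the cholesterol side chain, measured 16.6, 22.6, 29.9 and 30.8 FPKM in the rFGF4 mice and 26.8, 25.2, 28.5 and 28.4 FPKM in the model mice. Model mice kept within 25.2 to 28.5 FPKM, inside the range of the treated mice, and the log2 fold change was -0.16 (95% interval -0.60 to 0.28). Cyp7b1, the oxysterol hydroxylase, measured 7.53, 24.3, 10.9 and 11.6 FPKM in the rFGF4 mice and 6.83, 16.9, 18.6 and 7.56 FPKM in the model mice, highest in rFGF4 mouse 2, with values of 6.83 to 7.56 FPKM shared by mice of both groups. The log2 fold change of Cyp7b1 was 0.11 (95% interval -0.84 to 1.07). The ratio of Cyp7b1 to Cyp27a1 ran from 0.254 to 1.07 without separating the groups.

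Cyp39a1, another oxysterol hydroxylase, measured 2.61, 2.29, 1.6 and 2.21 FPKM in the rFGF4 mice and 2.15, 1.69, 1.66 and 1.73 FPKM in the model mice with a log2 fold change of 0.17 (95% interval -0.14 to 0.49). Cyp46a1, the cholesterol hydroxylase best known from neurons, measured 1.34, 0.531, 0.58 and 0.766 FPKM in the rFGF4 mice and 0.963, 1.13, 0.916 and 0.952 FPKM in the model mice, with a log2 fold change of -0.16 (95% interval -0.51 to 0.18). Cyp7a1, the rate-limiting enzyme of bile acid synthesis, and Cyp8b1, which directs it to cholic acid, did not exceed 0.0775 FPKM.

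The CYP1 family, targets of the aryl hydrocarbon receptor, was led by Cyp1b1, which oxidises estrogens and aromatic pollutants. Cyp1b1 measured 12.2, 6.17, 4.92 and 3.9 FPKM in the rFGF4 mice and 4.07, 3.18, 2.16 and 10.3 FPKM in the model mice. The highest values were those of rFGF4 mouse 1 and model mouse 5, 1 from each group. Its log2 fold change, 0.47 (95% interval -0.53 to 1.47), was the highest of the 31, and without model mouse 5 it was 0.83, which passed the threshold, with adjusted p = 0.620 in limma's fit. Without rFGF4 mouse 1 it was 0.18 and without model mouse 4 it was 0.22. Cyp1a1 stayed below 1 FPKM in every library, and Cyp1a2 at or below 0.0694.

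Retinoic acid is cleared by the CYP26 enzymes. Cyp26b1 measured 1.28, 0.799, 0.723 and 1.1 FPKM in the rFGF4 mice and 1.04, 1.29, 1.24 and 2.26 FPKM in the model mice, highest in model mouse 5, and had the lowest log2 fold change of the 31, -0.30 (95% interval -0.70 to 0.10), with the smallest p in limma, 0.125. Cyp26a1 did not pass the filter, with 1.15 FPKM in rFGF4 mouse 1 and at most 0.484 elsewhere, and Cyp26c1 did not exceed 0.112. Cyp20a1, an enzyme without a known substrate, measured 10.1, 7.34, 6.16 and 4.49 FPKM in the rFGF4 mice and 6.0, 5.16, 4.16 and 7.14 FPKM in the model mice, with a log2 fold change of 0.25 (95% interval -0.29 to 0.79).

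Families of other organs were near 0. None of the 9 CYP3A genes, the leading drug-metabolising P450s of liver and gut, passed the filter, and 5 of the 9 were at 0 in all libraries. Cyp3a13 reached 1.21 FPKM in rFGF4 mouse 1. None of the 6 steroidogenic genes passed it either. Cyp11b1 and Cyp11b2, the last enzymes of corticosteroid synthesis in the adrenal gland, were at 0 in all libraries, and Cyp17a1 was highest at 1.08 FPKM in model mouse 2. In all, 14 members were at 0 in every library. Members just below the filter included Cyp1a1 and Cyp4f14, each at 0.5 FPKM or more in 3 libraries, and members just inside it were Cyp2j8 with 5 such libraries and Cyp4f18 with 6.

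Markers of liver, adrenal gland and fat were read in the same way. The 8 liver markers summed to 176 to 291 FPKM in the model mice and 269.5 to 529 in the treated mice, and the mean of log2(FPKM + 1) over the list was higher in every treated mouse (2.57 to 3.14) than in any model mouse (2.18 to 2.52). Of the 6 markers tested 2 passed the threshold, where 1.52% of all genes did, each with an adjusted p of 0.918 in limma's fit. Apoa1, an apolipoprotein, measured 6.42, 8.88, 9.19 and 3.75 FPKM in the rFGF4 mice and 3.47, 1.79, 1.45 and 3.42 FPKM in the model mice, without overlap of the groups, and had a log2 fold change of 1.18. Serpina1a, a protease inhibitor that made most of the sum, measured 264, 458, 244 and 217 FPKM in the rFGF4 mice and 225, 216, 165 and 152 FPKM in the model mice, with overlap, and had a log2 fold change of 0.60. With 1 library left out Serpina1a ran from 0.37 to 0.72, and its call was kept only without rFGF4 mouse 5 or model mouse 2. Without rFGF4 mouse 1 (0.63), rFGF4 mouse 3 (0.67) or model mouse 3 (0.67) it was still past 1.5-fold, and limma's unadjusted p was 0.0629, 0.0533 and 0.0544, whereas without rFGF4 mouse 2, model mouse 4 or model mouse 5 it was under 1.5-fold as well. With the common median ratio Serpina1a was 0.47, under 1.5-fold, and not called. Alb, the gene of albumin, lay between 2.62 and 15.6 FPKM. The part of these markers in the P450 values was not tested.

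The 6 adrenal cortex markers summed to 4.49 to 9.60 FPKM, with Akr1b7 at up to 5.80 and Hsd3b1 at up to 3.64, and the defining factor Nr5a1 did not exceed 0.011. The 4 adrenal medulla markers summed to at most 0.162 FPKM, with Th at 0 in all libraries, and the 4 fat markers to at most 0.579.

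Partners and regulators of the P450 enzymes were read in the same fit. Of 28 such genes 26 were tested, 1 passed the threshold, where 1.52% of all genes did, and 2 had an unadjusted p under 0.05, where 4.62% of all genes did. Ppara, the fatty acid receptor that induces CYP4A genes, measured 3.27, 7.86, 15.6 and 6.88 FPKM in the rFGF4 mice and 3.26, 0.991, 4.63 and 2.19 FPKM in the model mice. Its log2 fold change was 1.26 (p = 0.0220, adjusted p = 0.918 in limma, exact permutation p = 0.0571), and the groups overlapped because rFGF4 mouse 1 and model mouse 4 crossed. Without rFGF4 mouse 3 it was 0.93 and without model mouse 3 it was 0.98, both past 1.5-fold, and the call was lost because limma's unadjusted p rose to 0.0534 and 0.0604.

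Rxra, the partner receptor of Ppara, measured 16.5, 22.4, 25.1 and 16.1 FPKM in the rFGF4 mice and 14.8, 13.7, 15 and 13.8 FPKM in the model mice. All treated mice lay above all model mice, as groups did without overlap in 3.33% of all genes tested. The exact permutation test gave p = 0.0286, its minimum for groups of 4. The log2 fold change of Rxra, 0.43, was below the fold change the threshold asks for, with adjusted p = 0.918 in limma's fit. With libraries scaled to a common median ratio it was 0.31, and the groups overlapped.

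The electron donor and the main xenobiotic receptors gave overlapping groups. Por, the reductase that supplies electrons to P450s of the endoplasmic reticulum, measured 47.3, 70.04, 85.5 and 67.9 FPKM in the rFGF4 mice and 71, 49.5, 74.1 and 49.3 FPKM in the model mice, with a log2 fold change of 0.14. Por too was lowest in rFGF4 mouse 1 and highest in rFGF4 mouse 3. Ahr, the aryl hydrocarbon receptor, measured 2.51, 1.51, 0.76 and 1.26 FPKM in the rFGF4 mice and 1.07, 1.16, 0.889 and 2.08 FPKM in the model mice. Both Ahr and Cyp1b1 were highest in rFGF4 mouse 1 and next in model mouse 5. Cyp1a1, another target, was lowest in rFGF4 mouse 1, at 0.231 FPKM, and at 0.304 in model mouse 5. Of all genes tested, 48.1% were highest in rFGF4 mouse 1, and a link of these genes to Ahr was not tested. Nr1i2, the receptor PXR that induces CYP3A genes in liver, measured 4.38, 3.34, 4.04 and 2.66 FPKM in the rFGF4 mice and 3.4, 2.84, 2.35 and 3.23 FPKM in the model mice, and Nr1i3, the receptor CAR, measured 0.51, 0.976, 0.60 and 0.77 FPKM in the rFGF4 mice and 0.746, 0.245, 0.35 and 0.514 FPKM in the model mice. Their log2 fold changes were 0.21 and 0.23, with exact permutation p = 0.257 and p = 0.143.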

How the data were processed

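Poly(A) RNA of mouse kidney was sequenced in pairs of reads, 4 libraries labelled rFGF4 treatment and 4 labelled db/db model. Nothing in the labels describes separate litters or pools, so each library was taken as 1 mouse, and p-values measure the spread between these libraries. The submitters' processing notes name HISAT2 2.0, StringTie 1.3.0 and Bowtie 0.12.2 and the build mm8, with no role or order. Identifiers were looked up in GENCODE M21 on GRCm38, which held 55141 of 55401 and all 89 members, and all positions printed are from that annotation or from RefSeq's GRCm38.p6 table, never from the authors' coordinates.

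The authors deposited FPKM per gene and library, normalised to transcript length and sequenced fragments. A value of 0.0001 was read as 0. Counts were not analysed here, so a count test could not be used, depth is unknown and intervals cover the spread between mice. The table also holds columns of the authors' own comparison: a fold change as a ratio, its log2 as deposited, and a p-value and q-value as deposited, none of which were used.

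Genes with at least 0.5 FPKM in 4 or more libraries, 15150 in all, were compared as log2(FPKM + 1) in limma 3.58.1 (R 4.3.3), whose prior variance followed the mean level, and p-values were adjusted over all of them by the Benjamini-Hochberg method. A fold change on this scale understates that of low genes. A gene was called, by the limits the study used, when p was under 0.05 and the fold change was 1.5 or more. The study does not say whether its p was adjusted, and p before adjustment was taken here. A two-sided exact permutation test of each gene ran over all 70 ways to assign the 8 libraries, with a smallest p of 0.0286. The members, the roles and the lists were chosen with earlier results of these data known.

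Members were described in detail where they passed the threshold, had groups that did not overlap, were among the 10 most abundant or had the highest or lowest log2 fold change of their role. Others are given by range, and where single values of others are printed (such as Cyp2j6, Cyp2j7, Cyp2j8, Cyp4f18, Cyp4v3 and Cyp7b1), they were chosen after their values were seen. Regulators were named where they passed the threshold or did not overlap, together with Por, Ahr, Nr1i2 and Nr1i3. The sharing of 100-base stretches between transcripts was counted in GENCODE M21. Alternatives were other pseudocounts (0.1 and 0.5), other filters, other scalings, library weights, leaving out each library and a block on library number. The plots were made in Python 3.11.15 with matplotlib 3.10.9.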

Additional observations from a re-analysis of the deposited data

Results flagged for a closer look

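In each of the 62 groups of 4 mice formed by the 31 tested members, a mouse's gap to its nearest neighbour was taken as a share of the group's whole range, on log2(FPKM + 1). In 6 groups it exceeded Dixon's limit at the 95% level, where about 3.1 are expected by chance at 1 group in 20. The groups reuse the same mice, so they are not independent. In 5 of the 6 the mouse was rFGF4 mouse 1. It was low in Cyp2d12 (0.986), Cyp2j7 (0.943), Cyp2j11 (0.907) and Cyp2c23 (0.846) and high in Cyp4f17 (0.842). In Cyp39a1 model mouse 2 was high, at 2.15 FPKM against 1.66 to 1.73 in the other model mice (0.844). The proximal tubule markers were lowest and the macrophage markers were high in rFGF4 mouse 1, and the part of either in these gaps was not tested.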

How the results depend on the processing

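The count of members past the threshold was 0 with all libraries, 0 to 1 when each library was left out in turn (1 without rFGF4 mouse 1 and 1 without model mouse 5), and 0 with each other pseudocount, filter, scaling and weighting and without the library of each group highest in macrophage genes. The count of members with an unadjusted p under 0.05 in limma was 0 with all libraries and 4 without rFGF4 mouse 1 (4.23% of all genes). It was 3 without the library of each group highest in macrophage genes (5.68%) and 5 over the 6 libraries with shared numbers without a block (4.17%). It was 1 each without model mouse 5 (6.51%), with no filter (4.07%), the common median ratio (4.69%), library weights (12%) and the block (2.61%). No member had an adjusted p under 0.05 under any alternative. The mouse numbers 2, 3 and 5 occur in both groups, but same-numbered mice deviated in opposite directions (correlations -0.23, -0.16 and -0.39), so they were not taken as pairs. With the replicate block over those 6 libraries the count was 0, and for the same 6 libraries without the block, added after seeing the data, it was 2, Cyp2c23 (0.67) and Cyp4b1 (0.81), beside 255 of all genes (1.68%). Over all genes the count of 231 became 348 with a pseudocount of 0.1, 490 with library weights, 187 to 575 with 1 library left out, 263 with the block, and 0 by adjusted p. Scaling the libraries to a common median ratio moved the median log2 fold change of all genes from 0.09 to -0.011, and of 231 calls 165 were higher, against 93 of 174 after it. Leaving out mitochondrial genes and scaling each library by its remaining FPKM gave 280 higher calls of 320.

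Most log2 fold changes were near 0, and 9 of the 31 kept their sign under every alternative in which they were tested: Cyp2a4, Cyp2a5, Cyp2j6, Cyp2s1, Cyp2u1, Cyp4b1, Cyp26b1, Cyp39a1 and Cyp46a1, the last of which was not tested with a mean of at least 1 FPKM. Keeping the sign did not keep the size: with 1 library left out these ran over Cyp2a4 0.0052 to 0.46, Cyp2a5 0.081 to 0.65, Cyp2j6 0.12 to 0.19, Cyp2s1 0.088 to 0.58, Cyp2u1 -0.36 to -0.12, Cyp4b1 0.015 to 0.64, Cyp26b1 -0.38 to -0.16, Cyp39a1 0.11 to 0.27 and Cyp46a1 -0.29 to -0.090, and Cyp2s1 was 0.0101 with the block. Signs changed as follows, and the cause was not tested. With the common median ratio Cyp2c23 was -0.013, Cyp2d22 -0.031, Cyp2d26 -0.052, Cyp2j9 -0.0018, Cyp4f17 -0.0041, Cyp4f18 -0.07 and Cyp7b1 -0.0049. With mitochondrial genes left out and each library scaled by its remaining FPKM, Cyp2e1 was 0.085, Cyp2f2 0.0047, Cyp2j5 0.0995 and Cyp4f13 0.017. With library weights Cyp2d12 was 0.36, Cyp2e1 0.13, Cyp2f2 0.0022, Cyp2j13 -0.006, Cyp2j5 0.048, Cyp2j7 0.0033, Cyp2j8 -0.072 and Cyp4f18 -0.024. Over the 6 libraries with shared numbers, with and without the block, Cyp1b1 was -0.067, Cyp20a1 -0.033, Cyp27a1 0.038, Cyp2d12 0.55, Cyp2d9 0.46, Cyp2e1 0.58, Cyp2j11 0.40, Cyp2j5 0.45, Cyp2j7 0.059, Cyp4f16 -0.20, Cyp4f17 -0.14, Cyp4f18 -0.64 and Cyp4v3 -0.30. Without the library of each group highest in macrophage genes, added after seeing the data, Cyp27a1 was 0.037, Cyp2d12 0.58, Cyp2d9 0.13, Cyp2e1 0.29, Cyp2f2 0.1004, Cyp2j11 0.0999, Cyp2j5 0.21, Cyp2j7 0.0905, Cyp4f17 -0.058 and Cyp4f18 -0.22. Leaving out 1 library changed the sign of 18 members, whose ranges were Cyp27a1 -0.27 to 0.017, Cyp2c23 -0.11 to 0.58, Cyp2d12 -0.41 to 0.52, Cyp2d26 -0.17 to 0.53, Cyp2d9 -0.32 to 0.30, Cyp2e1 -0.20 to 0.41, Cyp2f2 -0.29 to 0.056, Cyp2j11 -0.37 to 0.24, Cyp2j13 -0.11 to 0.63, Cyp2j5 -0.19 to 0.32, Cyp2j7 -0.21 to 0.044, Cyp2j8 -0.099 to 0.22, Cyp2j9 -0.069 to 0.22, Cyp4f16 -0.077 to 0.38, Cyp4f17 -0.12 to 0.21, Cyp4f18 -0.47 to 0.31, Cyp4v3 -0.14 to 0.39 and Cyp7b1 -0.19 to 0.33. Ppara was 1.16 with the common median ratio, past 1.5-fold, and lost its call because the unadjusted p rose to 0.0532. Serpina1a lost its call with the common median ratio (0.47, unadjusted p 0.137 in limma), the block (0.57, 0.0759), the same 6 libraries without it (0.57, 0.126), without the library of each group highest in macrophage genes (0.53, 0.131), all under 1.5-fold, and with no filter (0.60, 0.0531), where only p moved. Depth is unknown, so low members such as those under 1 FPKM carry counting error that could not be estimated.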
